A study of Mus musculus with 13 samples.

Results

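The 586 regions described here are the long stretches of the mouse genome over which RNA polymerase II (PolII) was called as 1 uninterrupted peak in control cells and was found again after KAP1 was knocked down. They were chosen by their length and by that overlap: a control PolII peak entered if it spanned 3000 bp or more and shared at least 1 bp with a PolII peak of the Kap1 KD cells. Of the 5015 control PolII peaks, 612 were that long, and 586 of these 612 (95.8%, 95% Wilson interval 93.8 to 97.1) were found again. The background rate over all 5015 control peaks was 86.1%, and among the control peaks under 3000 bp it was 84.8%. Since length and overlap selected the regions, their control lengths, their scores and their Kap1 KD spans are given as a description and carry no test.

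The study mapped the chromatin co-regulator KAP1 (TRIM28) and the 2 polymerases in Hepa 1.6 cells, a mouse hepatoma line, by chromatin immunoprecipitation and sequencing. PolII was precipitated with the antibody CTD4H8 from cells that had received a vector with a control shRNA and from cells that had received an shRNA against KAP1, fixed 5 days after transduction. KAP1 and the histone marks H3K27ac, H3K4me1 and H3K9me3 were mapped in cells of the same line kept in standard culture per the labels, so no mark was measured under Kap1 KD. Each antibody and condition has 1 library and 1 deposited list, there is no replicate of any value, and no comparison of the PolII lists is a test of the knockdown.

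The lists held 12862 PolII peaks under Kap1 KD, 12470 KAP1 peaks, 57562 H3K27ac regions, 74014 H3K4me1 regions and 66242 H3K9me3 regions. The Kap1 KD list is therefore the larger of the PolII lists, and a difference in sequencing depth, in the yield of the precipitation or in the cells cannot be told apart from it. All positions are on build mm9, and genes are those of GENCODE M1. Intervals on shares are 95% Wilson intervals and those on medians are exact binomial order-statistic intervals. They cover counting error over the peaks of these libraries only, and neighbouring peaks on 1 gene are not independent. Of 12 genes fixed as markers of hepatocytes and fetal liver, 2 carried a control PolII peak, among them Foxa2. Alb and Afp, which encode the main plasma proteins of adult and fetal liver, carried none, so PolII peaks did not mark these defining liver genes. Of 4 leukocyte markers, 1 (Cd68) carried a control peak, and none of 3 endothelial and 3 fibroblast markers did. The Cd68 peak was one of the long regions and the gene held 0 H3K27ac regions. Whether that PolII belongs to Cd68 or to a neighbouring gene was not tested.

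PolII transcribes all protein-coding genes, most long noncoding RNAs, the spliceosomal U1, U2, U4 and U5 snRNAs and the hosts of most snoRNAs and microRNAs. In most genes it is densest in a narrow zone just after the start, where it pauses before release into elongation, while on the most heavily transcribed genes it is dense enough to be detected through the gene body and past the polyadenylation site, where it slows and terminates. H3K27ac marks active promoters and enhancers, H3K4me1 marks enhancers and the flanks of active promoters, and H3K9me3 marks the heterochromatin that KAP1 is best known for building at transposable elements and imprinted loci together with KRAB zinc finger proteins.

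The sequences just upstream of 4 genes are shown because the regions over them are described in detail. Axin2, Hnrnpu and Ncl are among the 10 longest regions that held a whole gene, and Hist2h2aa1 was added as a histone gene. It was picked as the histone gene in the longest region among those whose window held a TATA box and a CCAAT box. The presence of these boxes was thus set by the choice and is not a typical histone window. Each is the 250 bases before the annotated start on mm9, read 5′ to 3′ on the strand of the gene, at chr11:108781413-108781662 (plus strand) for Axin2, chr1:180267929-180268178 (minus) for Hnrnpu, chr1:88256031-88256280 (minus) for Ncl and chr3:96049211-96049460 (plus) for Hist2h2aa1. Capitals mark matches on either strand to the TATA box, searched as TATAAA. They also mark the GC box, searched as GGGCGG, and the CCAAT box, searched by those letters, and boxes that adjoin or overlap run together.
Axin2: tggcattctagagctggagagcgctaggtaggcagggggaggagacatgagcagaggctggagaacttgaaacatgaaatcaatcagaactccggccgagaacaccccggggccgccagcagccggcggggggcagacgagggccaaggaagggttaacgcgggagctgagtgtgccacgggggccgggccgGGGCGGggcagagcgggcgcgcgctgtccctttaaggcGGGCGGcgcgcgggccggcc
Hnrnpu: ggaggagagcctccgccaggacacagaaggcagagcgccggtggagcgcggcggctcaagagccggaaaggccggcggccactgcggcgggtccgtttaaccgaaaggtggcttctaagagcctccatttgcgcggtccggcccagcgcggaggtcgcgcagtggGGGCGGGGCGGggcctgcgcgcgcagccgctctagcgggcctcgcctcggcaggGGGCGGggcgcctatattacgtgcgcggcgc
Ncl: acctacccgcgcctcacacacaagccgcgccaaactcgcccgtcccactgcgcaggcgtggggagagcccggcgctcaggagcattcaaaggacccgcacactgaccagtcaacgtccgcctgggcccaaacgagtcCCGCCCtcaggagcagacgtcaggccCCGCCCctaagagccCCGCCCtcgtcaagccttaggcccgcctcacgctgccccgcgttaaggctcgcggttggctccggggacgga
Hist2h2aa1: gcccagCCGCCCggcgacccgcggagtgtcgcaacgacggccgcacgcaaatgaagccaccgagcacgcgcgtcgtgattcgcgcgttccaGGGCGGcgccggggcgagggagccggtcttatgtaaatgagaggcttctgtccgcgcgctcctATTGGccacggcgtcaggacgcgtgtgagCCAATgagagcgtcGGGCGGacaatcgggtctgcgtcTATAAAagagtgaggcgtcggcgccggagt
The Axin2, Hnrnpu and Ncl windows held GC boxes and no TATA box, and Hist2h2aa1 held 1 TATA box, 3 GC boxes and 2 CCAAT boxes.

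Over windows from 250 bases before to 50 bases after the start, TATAAA was found at 12.2% (8.53 to 17.2) of the 221 leading protein-coding genes whose start lay in a long region, at 6.75% of the 2206 protein-coding starts in shorter control peaks and at 13.4% of all 22367 protein-coding genes. GGGCGG was found at 66.5%, 68.4% and 43.4% of these windows, and CCAAT at 43.4%, 34.5% and 37.9%. Over all 336 protein-coding starts in long regions, leading or not, GGGCGG was found at 61.3% (56.0 to 66.4), below the 68.4% (66.4 to 70.3) in shorter control peaks and above the share of all genes. The 27 replication-dependent histone genes whose start lay in a long region held TATAAA at 48.1% (30.7 to 66.0), CCAAT at 81.5% (63.3 to 91.8) and GGGCGG at 40.7%. The 41 ribosomal protein genes held them at 9.76%, 34.1% and 51.2%. A match is a description of the letters only.

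The long regions covered 3.54 Mb of the 7.97 Mb under control PolII peaks, or 44.5% of all bases called. Their median control length was 4780 bp (4575 to 5077), against 921 bp for all control peaks, and the range was 3002 to 34766 bp. Of the 586, 277 spanned 5000 bp or more, 68 spanned 10000 bp or more and 6 spanned 20000 bp or more. The deposited peak score had a median of 200 over the long regions and 36.0 over the other control peaks. The score rises with width in these lists and its definition is not given in the sources used here, so it is no separate measure of occupancy.

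Just inside the length minimum were an intergenic peak on chromosome 10 of 3002 bp (3928 bp under Kap1 KD), a peak inside Aldoa, which encodes the glycolytic enzyme aldolase A, of 3002 bp (2554 bp) and a peak over the start of Pdgfb, a platelet-derived growth factor gene, of 3009 bp (3106 bp). Just outside it were the snoRNA host Snhg1 at 2992 bp (3391 bp), a peak inside Tex14 at 2991 bp (3008 bp) and an intergenic peak on chromosome 4 at 2987 bp (5182 bp). The Kap1 KD span was the longer one at 2 of the 3 just inside and at all 3 just outside.

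The summed length of the Kap1 KD peaks over a region, divided by its control length, had a median of 1.14 (1.11 to 1.18) and a range from 0.264 to 18.4. Within 1.5-fold of the control were 414 regions (70.6%), and the Kap1 KD span was longer than the control at 451 (77.0%), against 78.4% of all control peaks found again. The Kap1 KD span was at least 1.5 times longer at 146 regions (24.9%, 21.6 to 28.6), where the background over all 4320 control peaks found again was 45.1%. It was at least 1.5 times shorter at 26 regions (4.44%, 3.05 to 6.42), against a background of 5.62%. For the shorter control peaks found again the median ratio was 1.46. The long regions were chosen on the length that stands in the denominator, so the same was read from the other list. Over the 998 Kap1 KD peaks of 3000 bp or more that overlapped a control peak, the control span was a median of 0.697 (0.663 to 0.734) of the Kap1 KD span.

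**Figure D1:**
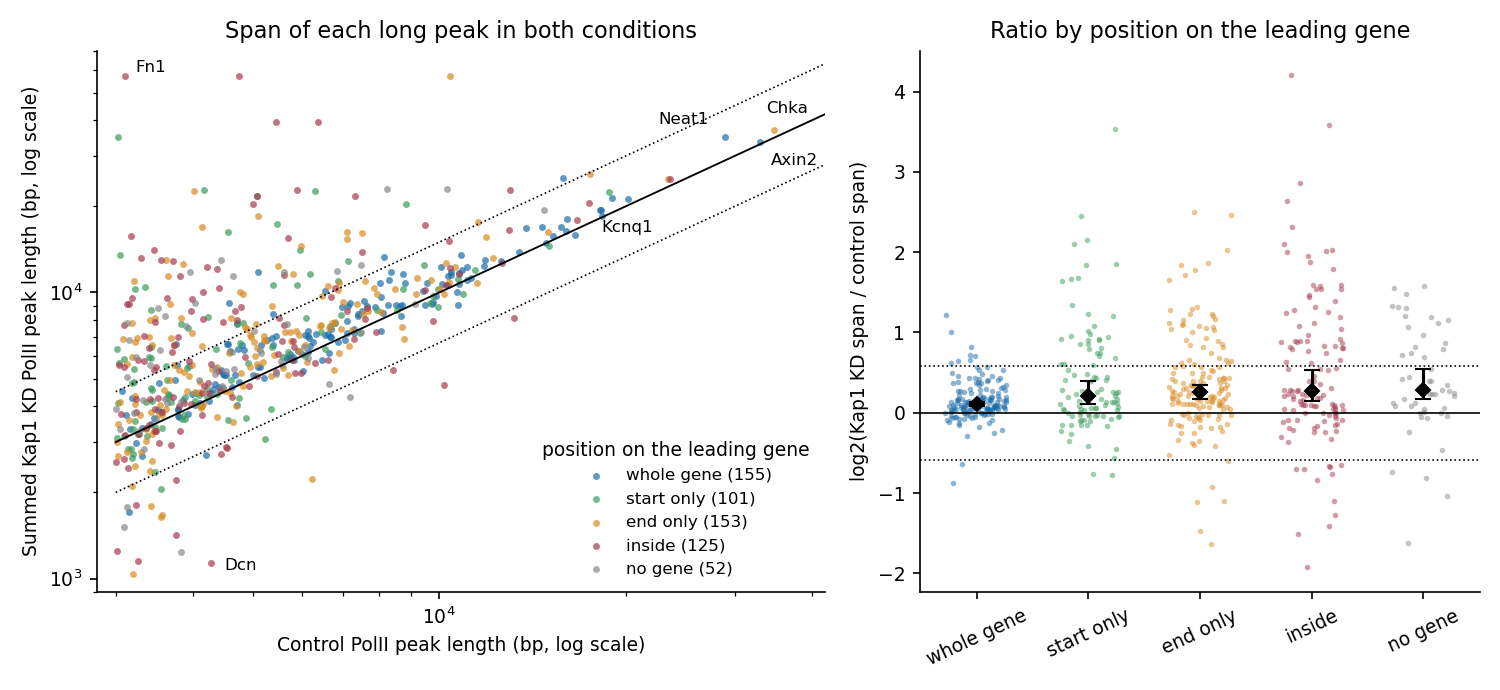
Left, length of each of the 586 long control PolII peaks (horizontal axis, bp, log scale) against the summed length of the Kap1 KD peaks that overlap it (vertical axis, bp, log scale), with lines of equal and 1.5-fold different length. Right, log2 of the ratio of these lengths by how the region lies on its leading gene, with the median and its 95% interval as a diamond and bar. Most points lie near or just above the line of equal length (median ratio 1.14), 146 lie at or above the upper line and 26 at or below the lower.

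A single Kap1 KD peak was found over 503 regions (85.8%), 2 or more over 83 (14.2%) and 3 or more over 11. Of all 4320 control peaks found again 2.78% had 2 or more, and of the shorter ones 0.991%, a share that width alone raises. A median of 99.9% of a region's bases lay under Kap1 KD peaks, 288 regions (49.1%) were covered whole and 26 (4.44%) were covered by under 50%, against 51.7% and 5.83% of all control peaks found again. Where the gene gave a direction (534 regions), the outer edge moved by a median of 280 bp (219 to 347) on the upstream side and 359 bp (294 to 458) on the downstream side, outward in both cases, against 134 bp and 186 bp over all control peaks found again. Joining went the other way: 49 regions shared a Kap1 KD peak with another of the 586, in 23 groups.

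Each region was assigned the gene it covered most, its leading gene. The region held the whole leading gene at 155 (26.5%), its start without its end at 101 (17.2%), its end without its start at 153 (26.1%) and neither at 125 (21.3%), while 52 (8.87%) lay outside any gene. Leading genes were protein-coding at 481 regions (425 different genes), lincRNAs at 25, snRNAs at 11 and processed transcripts at 11. A protein-coding start lay in 256 regions (43.7%, 39.7 to 47.7), against 44.6% of all control peaks and 49.4% (48.0 to 50.9) of those found again. A whole protein-coding gene lay in 153 (26.1%, 22.7 to 29.8), against 3.89% of all control peaks and 0.863% of the shorter ones, which their width limits.

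The regions that held a whole gene were over short genes and ran past their ends. The leading gene had a median length of 3242 bp (2807 to 3811), and 91.6% were under 10000 bp. The region began a median of 319 bp (272 to 460) before the start and ended 2635 bp (2307 to 2878) past the annotated end, and 92.3% went at least 1000 bp past it. Regions over the end only also ran past it, by a median of 2181 bp (1976 to 2394). Regions over the start only lay on long genes (median 16929 bp) and covered a median of 18.0% of them. Those inside a gene lay on genes of median 38405 bp and covered 11.6%.

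The Kap1 KD span differed between these layouts. The median ratio was 1.08 (1.06 to 1.10) over whole genes, 1.16 (1.08 to 1.32) over starts, 1.20 (1.13 to 1.27) over ends, 1.21 (1.11 to 1.45) inside genes and 1.22 (1.13 to 1.46) outside genes. At least 1.5 times longer under Kap1 KD were 5.16% of whole-gene regions, 31.7% of those over starts, 26.1% over ends, 38.4% inside genes and 34.6% outside genes. Whole-gene regions were also the longest in the control (median 6537 bp, against 4139 to 4855 bp for the others), and the ratio fell with control length, from 1.19 for regions of 3000 bp to under 5000 bp to 1.13 for 5000 bp to under 10000 bp and 1.07 (1.05 to 1.10) for 10000 bp or more. Control length chose the regions and is the denominator of the ratio, so nothing is read from that fall. The parts of layout and of length were not separated.

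Aligned at the gene start (207 protein-coding leading genes, each taken with 1 of its regions, whose start lay in that region), a control PolII peak lay at 4950 bp from the start of 51.7% of genes and a Kap1 KD peak at 63.3%. Aligned at the gene end (261 genes), peaks lay 1950 bp past the end at 61.6% and 76.5%, 4950 bp past it at 8.85% and 20.5%, and 9950 bp past it at 2.51% and 7.58%. At these distances the Kap1 KD share was the higher one. It was also higher at 950 bp before the start (46.3% against 31.7%) and at 950 bp past the end (91.1% against 88.7%). Just inside the genes, where the choice of regions puts the control near its maximum, it was lower: it was 96.7% against 98.6% at 950 bp and 90.9% against 91.4% at 1950 bp after the start, and 91.3%, below the control share, at 950 bp before the end. At 50 bp after the start both lists were near full (100% and 98.6%). The Kap1 KD list is the larger one (12862 peaks against 5015), and no profile was taken away from these genes as a background. Of the 19816 protein-coding starts outside control peaks, 10.9% lay in a Kap1 KD peak.

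**Figure D2:**
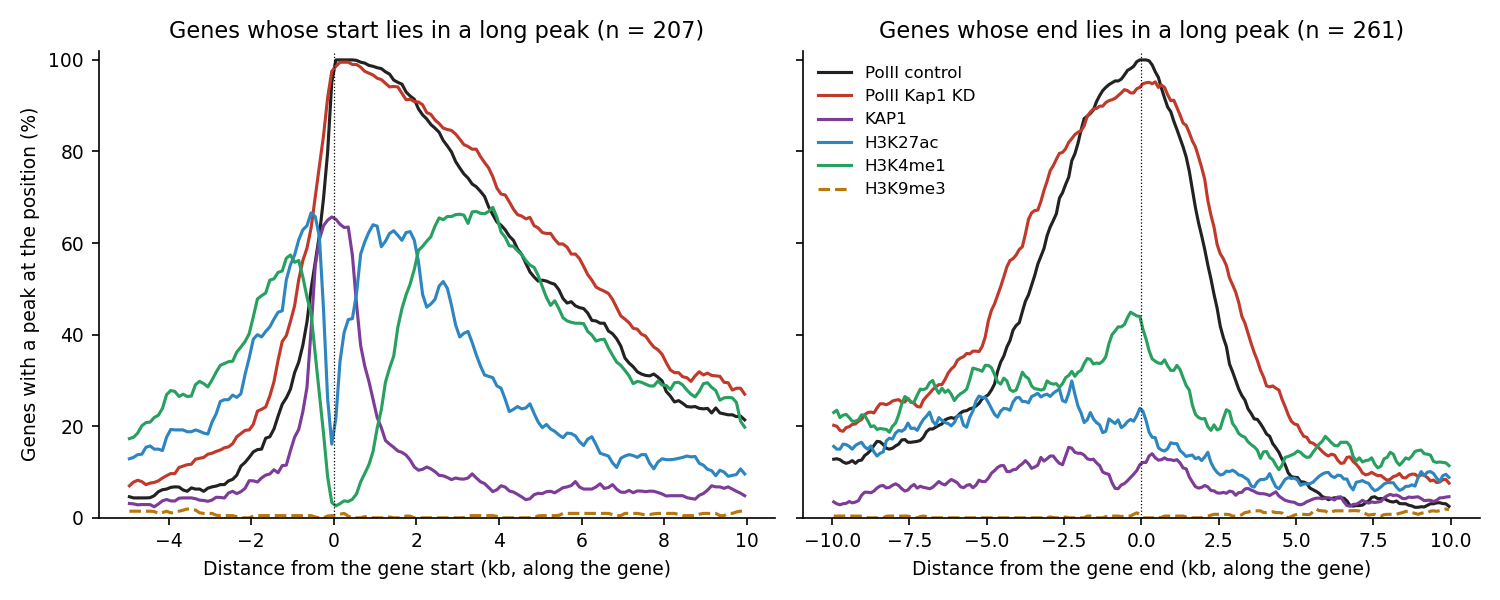
Share of genes (vertical axis, percent) with a peak of each list at each distance (horizontal axis, kb) from the gene start (207 genes) and from the gene end (261 genes) of leading protein-coding genes whose start or end lies in a long region. The KAP1 line peaks at 65.7% just before the start, the H3K27ac and H3K4me1 lines dip there, and the Kap1 KD PolII line lies above the control line from 650 bp past the gene end on, and below it from just before the end to 550 bp past it.

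The longest region of all, 34766 bp over the end of Chka (choline kinase alpha) and into Tcirg1, measured 37080 bp under Kap1 KD. It held 5 H3K4me1 regions and no KAP1 peak, H3K27ac or H3K9me3 region. Axin2, a feedback inhibitor of Wnt signalling, lay whole in a region of 32979 bp at chr11:108781597-108814575, and 2 Kap1 KD peaks over it summed to 33667 bp. This region began inside the window with 2 GC boxes printed above and held 3 KAP1 peaks of 3021 bp in all and 11 H3K4me1 regions. The architectural RNA of paraspeckles, Neat1, is 20771 bp long and lay whole in a region of 28962 bp, which was within a Kap1 KD peak of 34995 bp.

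Further down the order the spans stayed as close. A region inside the noncoding gene 8030451A03Rik went from 23602 to 24942 bp, and one over the end of Gm11019 from 23459 to 25022 bp. Hnrnpu, which encodes an RNA-binding nuclear matrix protein, lay whole in a region of 20157 bp (21272 bp under Kap1 KD), and Dusp4, a MAP kinase phosphatase, in one of 19003 bp (21449 bp). Ncl, which encodes nucleolin, lay in one of 18318 bp (18501 bp), and Scd2, a stearoyl-CoA desaturase, in one of 18223 bp (19366 bp). Over Fam178a the region of 18791 bp was found as 3 Kap1 KD peaks of 22424 bp in all. Each of the 10 longest regions was within 1.5-fold of its control length.

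**Figure D3:**
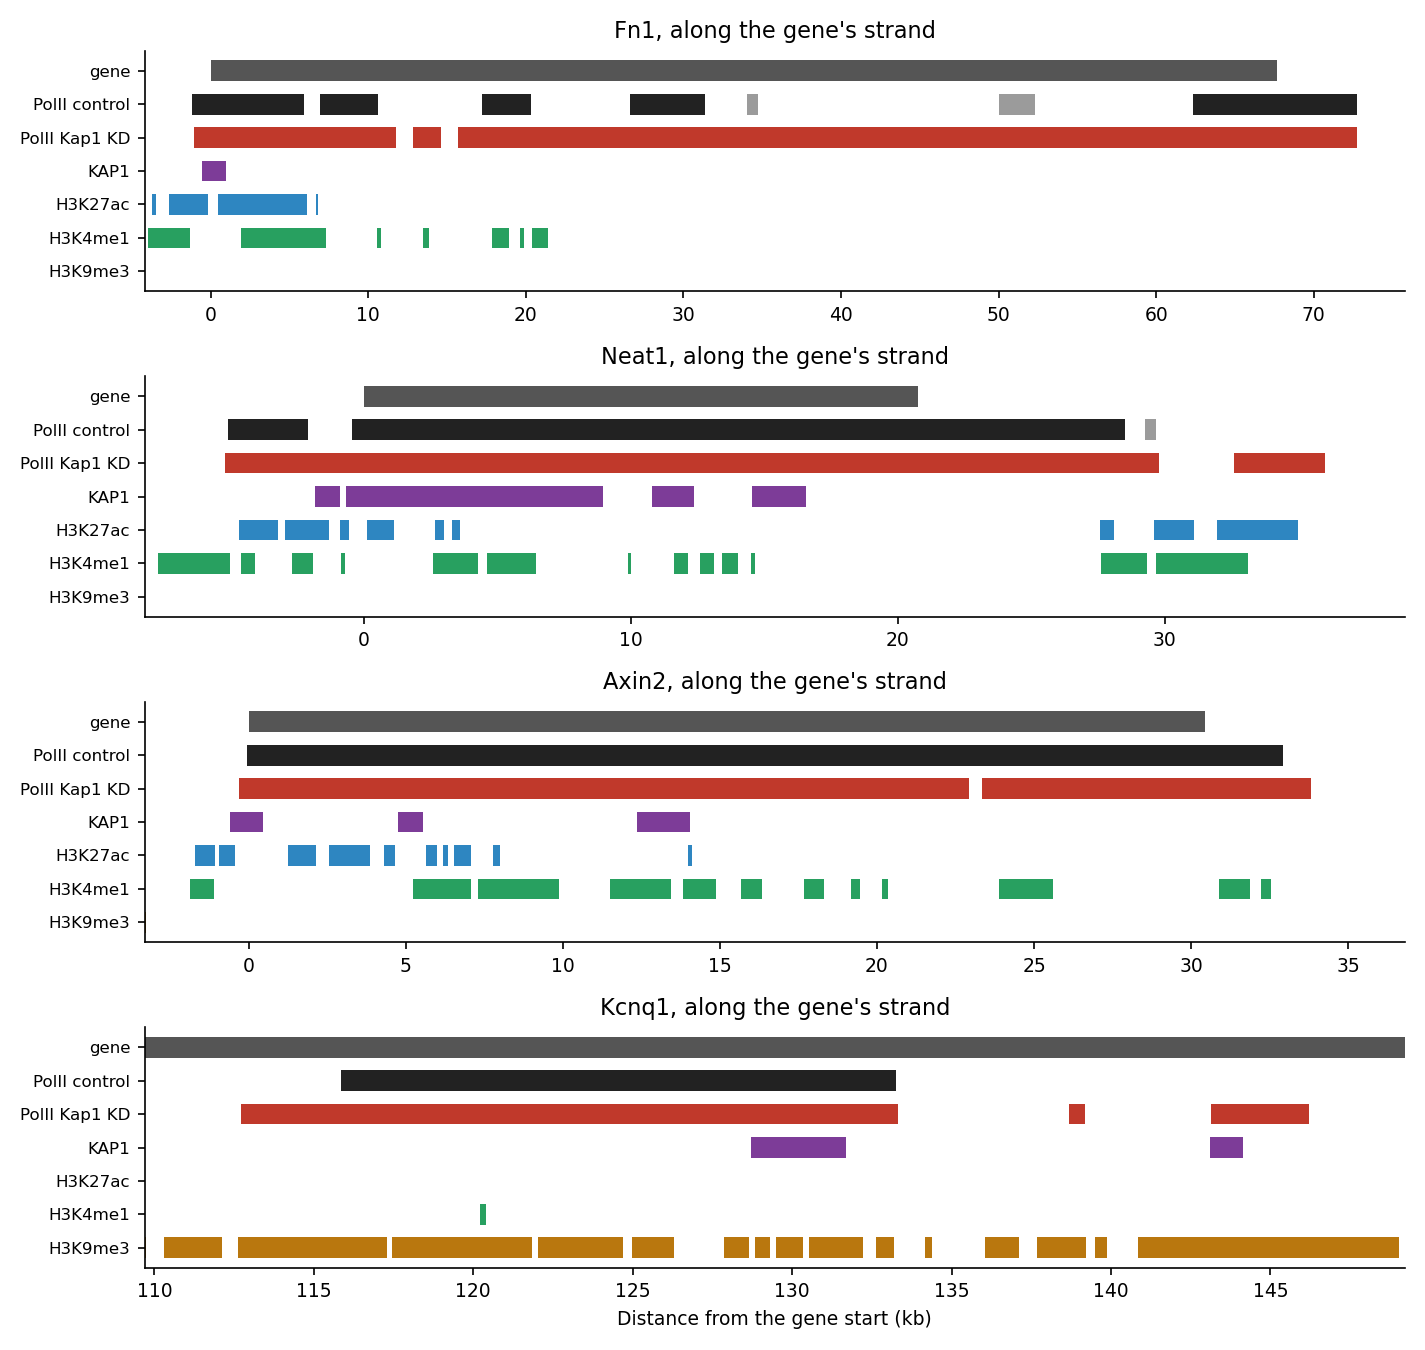
Peaks of each list as bars at Fn1, Neat1, Axin2 and Kcnq1, with distance from the gene start in the direction of transcription on the horizontal axis (kb), the long regions in black and shorter control PolII peaks in grey. The Axin2 span is nearly the same in both PolII lists, separate control peaks on Fn1 lie within a single Kap1 KD peak, and the Kcnq1 region lies among H3K9me3 regions.

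At the highest ratios several separate control peaks lay under 1 Kap1 KD peak. Fn1, which encodes fibronectin, is 67681 bp long and carried 5 of the 586 regions, of 10412, 4752, 3105, 3719 and 7115 bp from the gene's end to its start. Under Kap1 KD the first 3 lay in a single peak of 57115 bp, the longest of that list, and the other two overlapped a peak of 12848 bp. The ratios for the 3105 and the 4752 bp regions, 18.4 and 12.0, were the highest of the 586, while over the whole gene those Kap1 KD peaks summed to 2.40 times the 5 regions. A KAP1 peak lay at the Fn1 start only. Ywhae, which encodes a 14-3-3 protein, carried regions of 5456 and 6378 bp that both lay in 1 Kap1 KD peak of 39580 bp (ratios 7.25 and 6.21). A region of 3020 bp over Gm9783 and Frmd8 (ratio 11.6) shared the 34995 bp Kap1 KD peak of Neat1. In all, 47 leading genes carried 2 or more of the regions (106 regions).

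Where peaks joined, the summed span could stay near that of the control. Jag1, a Notch ligand gene, carried regions of 13023, 5888 and 4172 bp, and the 1 Kap1 KD peak over them measured 22847 bp, or 0.990 of their sum. Ipo7, an importin gene, carried 3 regions that became 1 peak of 21754 bp, 1.25 times their sum. On Myo10, a gene of 191149 bp for an unconventional myosin, 4 regions were found again at 2.52 times their summed length, while 5 further long control peaks on the gene, of 10349, 7086, 6161, 3998 and 3872 bp, had no Kap1 KD peak. Taking each group of regions that share Kap1 KD peaks as 1 value, the median ratio over 560 groups was 1.12, a setting chosen after the data had been seen.

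The lowest ratio was on a matrix gene. A region of 4283 bp inside Dcn, which encodes the proteoglycan decorin, was left with a Kap1 KD peak of 1129 bp (0.264), while the other Dcn region went from 4913 to 5683 bp. Regions over Mll2 and Prkag1 (3203 to 1036 bp), outside genes on chromosome 2 (3819 to 1237 bp), over Ttc19 and Ncor1 (3265 to 1148 bp) and over Caprin1 and Nat10 (6222 to 2237 bp) followed. These are the 5 lowest, and each kept a Kap1 KD peak by the rule of choice.

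The remaining 26 long control peaks had no Kap1 KD peak. At 22 of them (84.6%) the consecutive numbers of the Kap1 KD list skip at that place, where a site lacking a Kap1 KD peak on either side was counted as a skip. How often the numbers skip at other sites was not counted, so this share has no background. On chromosome 15 lay 12 (46.2%), and that chromosome held 54 of the 586 regions (9.22%). The longest were over Sqle, a cholesterol synthesis enzyme gene (13069 bp), over Matn2 and Rpl30 (12555 bp), inside Myo10 (10349 and 7086 bp) and over Tlcd2 with Mir22 (8127 bp). Calls missing from the list at these places cannot be told apart from a loss of PolII.

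Counted against all annotated genes of each list, fixed for this work with earlier results of these data known, the regions touched 652 of 22367 protein-coding genes (2.92%). Of 80 ribosomal protein genes they touched 52, 40 of them over at least 90% of their length. Rps20 lay in a region of 9776 bp (9284 bp under Kap1 KD) and Rpl7 in one of 9494 bp (9015 bp). Both were shorter under Kap1 KD, while over the 51 ribosomal protein regions the median ratio was 1.12 (range 0.881 to 2.43), against 1.14 over all 586. Of the 51, 33 held a KAP1 peak, 44 H3K27ac and 49 H3K4me1. The KAP1 counts of this and the other lists stand beside 49.3% of all 586 regions and 81.3% of those that held a whole gene.

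Nucleolar factors and snoRNA hosts were touched at 9 of 12 genes (median ratio 1.05), and 4 of their 9 regions held a KAP1 peak. Besides Ncl they included Npm1, which encodes nucleophosmin, from 16037 to 16383 bp, and the box C/D snoRNP factor Nop56, from 8100 to 8509 bp. With these hosts, 132 of 1552 annotated snoRNAs (8.51%) lay in 59 regions, 129 of them over at least 90% of their length. Translation factors were touched at 8 of 14 (1.09), among them Eef1g, an elongation factor subunit, from 10357 to 10914 bp and the helicase gene Eif4a1 from 8042 to 9612 bp. Splicing and RNA-binding proteins were touched at 11 of 24 (1.06), with Hnrnpu, Hnrnpa2b1 (16587 to 15926 bp), Hnrnpab (14968 to 16229 bp) and Srsf6 (10709 to 9021 bp) in the longest. These were named for their length, and ratios reached 1.94 among the translation factors and 1.70 among the splicing proteins.

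**Figure D4:**
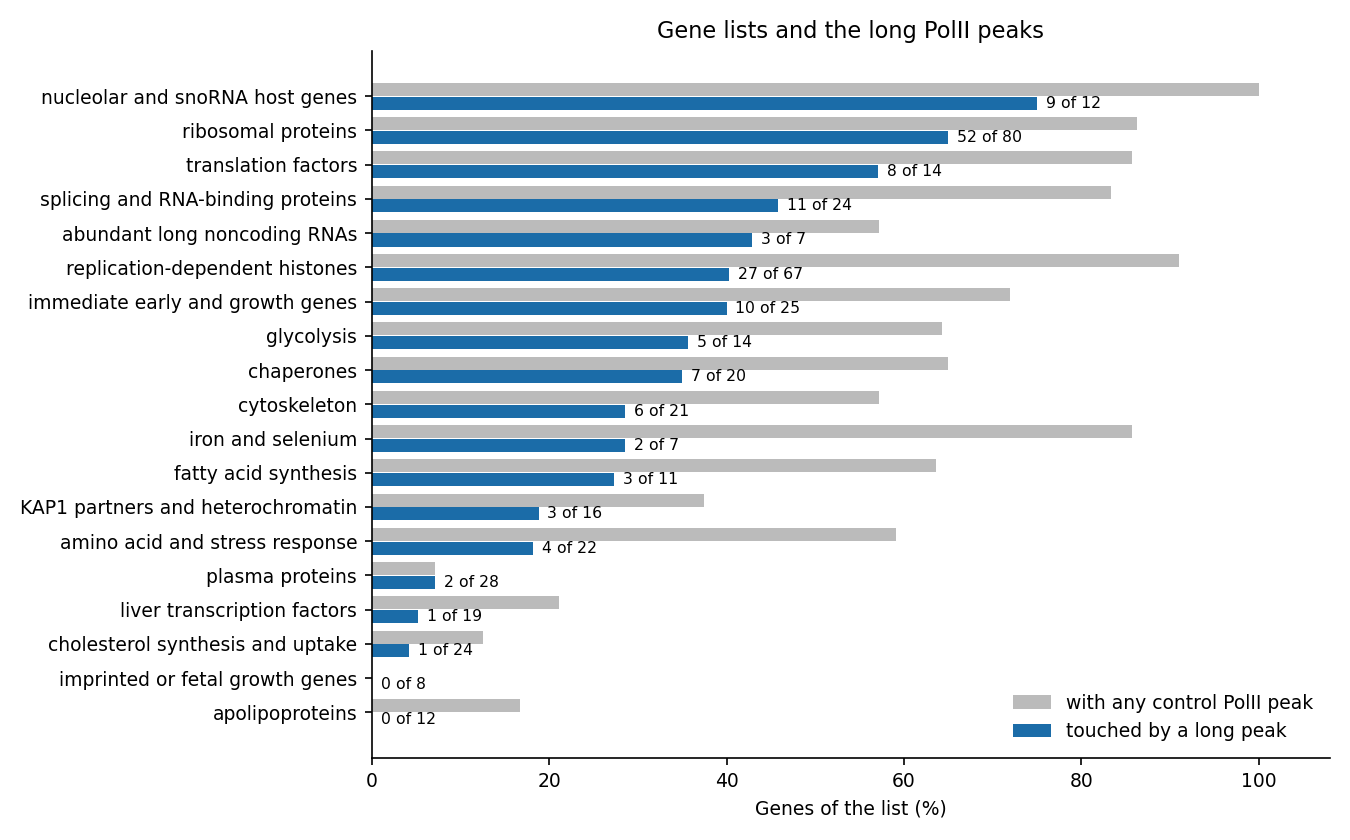
For each gene list (rows), the share of its annotated genes (horizontal axis, percent, bars from 0) that any control PolII peak overlaps, in grey, and that a long region touches, in blue, with the count beside the bar. Nucleolar and snoRNA host genes (9 of 12) and ribosomal protein genes (52 of 80) have the highest blue bars. The apolipoprotein list and the list of 8 imprinted or fetal growth genes, which leaves out Kcnq1 and H13, have none.

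Replication-dependent histone genes, which are short, intronless and clustered, were touched at 27 of 67, in 11 regions. Their median ratio was 0.982, the lowest of the lists with 5 or more regions, and 10 of the 11 held a KAP1 peak. The longest, 6528 bp over Hist1h4h, Hist1h2af and Hist1h3g, measured 6331 bp under Kap1 KD, and that of Hist2h2aa1, whose promoter window is printed above, went from 4530 to 5140 bp. The regions over Hist1h2ao and Hist1h2ap were both 3265 bp and both 3205 bp under Kap1 KD. Of their 3216 runs of 50 bases, 3064 (95.3%) were shared, so most of the sequence of one cannot be told apart from the other at that length. Spliceosomal snRNA genes were touched at 23 of 1423 annotated copies (1.62%, against 2.48% of all annotated genes), many of which are pseudogenes, in 21 regions with a median ratio of 1.05, and 20 of the 21 held a KAP1 peak.

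Among noncoding RNAs, Malat1, which lies beside Neat1 on chromosome 19, was in a region of 10333 bp (11417 bp) and Gas5, a snoRNA host, in one of 3403 bp (4230 bp). Immediate early and growth genes were touched at 10 of 25, with a median ratio of 1.07 and a range of 1.02 to 1.64. The genes named next were taken for their length. Ccnd1, the cyclin D1 gene, went from 15295 to 15734 bp, Klf6 from 11868 to 12944 bp, the AP-1 subunit gene Fosl1 from 10103 to 10673 bp and the matrix protein gene Ctgf from 5007 to 5127 bp. KAP1 peaks lay in 9 of these 10 regions.

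Actb, the beta-actin gene, went from 10840 to 13480 bp, and the cytoskeleton list was touched at 6 of 21 (1.19), with Pfn1 (9570 to 10756 bp), Cfl1 (7862 to 8904 bp) and Krt18 (6538 to 10093 bp). Glycolytic genes were touched at 5 of 14 (1.18), where Gapdh went from 7130 to 8940 bp and Pgam1 from 10883 to 12014 bp, while of the Pkm2 regions of 5966 and 3463 bp a Kap1 KD peak of 14030 bp covered the first whole and 21.0% of the second. Chaperones were touched at 7 of 20 (1.33), from Hspa5, the endoplasmic reticulum chaperone gene (8056 to 7363 bp), to Hspd1, the mitochondrial one, whose regions of 7095 and 4548 bp shared a Kap1 KD peak of 16314 bp (1.40 times their sum). A KAP1 peak lay in 2 of the 7 chaperone regions. The amino acid and stress response list was touched at 4 of 22 (median ratio 1.13, range 0.876 to 4.09). It held the transcription factor genes Ddit3 (6181 to 11587 bp) and Atf4 (4739 to 4849 bp), which are not its extremes.

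Of 28 annotated plasma protein genes 2 were touched (7.14%, against 2.92% of all protein-coding genes), Fn1 and the retinol carrier gene Rbp4 (5339 to 3918 bp). Of 19 liver transcription factors 1 was touched (5.26%), Foxa2 (5359 to 6924 bp), and of 24 cholesterol genes 1 (4.17%). Of 12 apolipoprotein and 8 imprinted or fetal growth genes none was touched. The list of 8 leaves out Kcnq1 and H13, which lie at imprinted loci and carried regions described below. Of 11 fatty acid synthesis genes 3 were touched, of 7 iron and selenium genes 2, and of 16 KAP1 partners and heterochromatin genes 3, of which Cbx3, Cbx5 and Setdb1 each had under 10% of their length in a region led by a neighbour.

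Of 1577 annotated microRNA genes, 24 (1.52%, against 2.48% of all annotated genes) were touched, in 19 regions (median ratio 1.22). Among all regions, 2 had a microRNA as the leading gene. The mature sequences of 7 are printed because they come from the 3 clusters or genes whose regions are described next. The seed, bases 2 to 8, is in capitals. They are taken from RefSeq (GRCm38.p6), in which 11 of the 24 were matched by symbol.
mmu-miR-21a-5p: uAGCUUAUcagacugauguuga
mmu-miR-25-3p: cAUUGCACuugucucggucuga
mmu-miR-93-5p: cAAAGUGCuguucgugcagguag
mmu-miR-106b-5p: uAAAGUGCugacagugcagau
mmu-miR-23a-3p: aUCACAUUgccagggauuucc
mmu-miR-27a-3p: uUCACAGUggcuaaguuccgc
mmu-miR-24-3p: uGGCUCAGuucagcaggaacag
The seeds of miR-93-5p and miR-106b-5p are the same, AAAGUGC, and the others differ.

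Mir21, one of the microRNAs best known from tumours, lay whole in a region of 11561 bp over the end of its host Vmp1, which measured 17628 bp under Kap1 KD (1.52). The cluster of Mir25, Mir93 and Mir106b, in an intron of the replication helicase gene Mcm7, lay in a region of 11507 bp that measured 10807 bp (0.939). The cluster of Mir23a, Mir27a and Mir24-2 lay at a region of 3638 bp, 98.7% of which was under a Kap1 KD peak of 11430 bp (3.14), and 44.0% of the Mir23a gene was inside the control region. The ratios of the microRNA regions thus ran from 0.939 to 3.14.

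KAP1 peaks of unperturbed cells overlapped 289 of the 586 regions (49.3%, 45.3 to 53.4), where the background over all 5015 control peaks was 39.8%. H3K27ac overlapped 407 (69.5%, 65.6 to 73.0) against 61.2%, H3K4me1 453 (77.3%, 73.7 to 80.5) against 46.2%, and H3K9me3 26 (4.44%, 3.05 to 6.42) against 7.02%. Over the 4320 control peaks that were found again, as the long regions were by choice, the shares were 44.1% for KAP1, 67.7% for H3K27ac, 48.3% for H3K4me1 and 3.84% for H3K9me3. Those for H3K27ac and H3K9me3 lay inside the intervals of the long regions. A wide region meets any list more easily, so the same was read around the centre and by bases. Within 500 bp of the peak centre, KAP1 was found at 117 of the 586 long regions and at 36.2% of all control peaks, H3K27ac at 45.4% and 63.9%, H3K4me1 at 53.4% and 48.4%, and H3K9me3 at 2.39% and 6.96%. By share of bases, KAP1 covered 15.7% against 24.8%, H3K27ac 30.5% against 32.7%, H3K4me1 34.6% against 26.4% and H3K9me3 1.04% against 2.18%. By both of these measures KAP1 and H3K27ac were lower in long regions than in all control peaks. Over the control peaks found again, the centre shares were 39.9% for KAP1, 69.9% for H3K27ac, 49.5% for H3K4me1 and 3.59% for H3K9me3, the last of these inside the interval of the long regions (1.43 to 3.97%) and that of H3K4me1 at the lower end of theirs (49.4 to 57.4%). The centre of a long region often lies away from the gene start, so starts are compared separately.

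**Figure D5:**
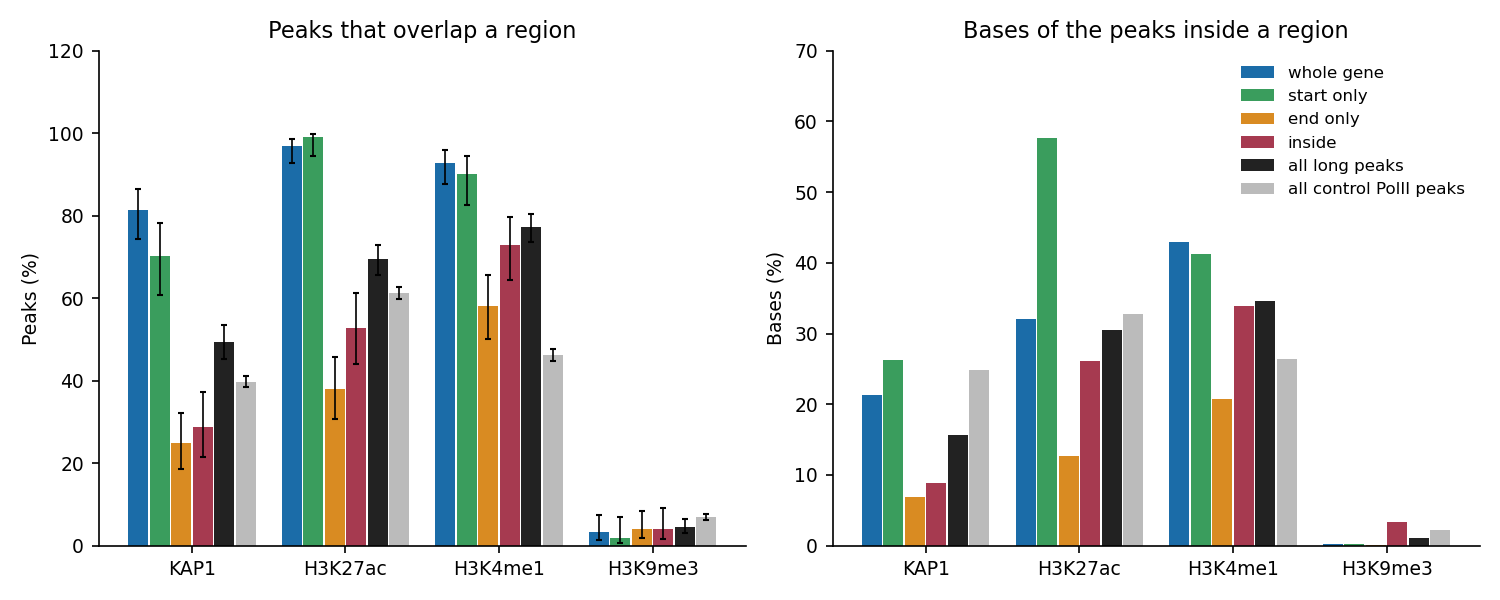
Left, share of peaks (percent) that overlap a KAP1, H3K27ac, H3K4me1 or H3K9me3 region, by how a long region lies on its leading gene, for all long regions and for all control PolII peaks, with 95% Wilson intervals over peaks. Right, share of the bases of the same peaks inside such a region (percent). Regions with a gene start hold KAP1 and H3K27ac most often (KAP1 81.3% over whole genes and 24.8% over ends), and the H3K9me3 bars are low in each class shown.

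KAP1 and H3K27ac were most often found where a region held a gene start. KAP1 overlapped 81.3% of whole-gene regions and 70.3% of those over a start, but 24.8% of those over an end and 28.8% of those inside a gene. H3K27ac was split alike (96.8%, 99.0%, 37.9% and 52.8%), and H3K4me1 less steeply (92.9%, 90.1%, 58.2% and 72.8%). The 52 regions outside genes lay between, with KAP1 at 34.6%, H3K27ac at 63.5% and H3K4me1 at 73.1%. Regions that met none of the 4 lists were 34.6% of end-only regions and 1 of 155 whole-gene regions (0.645%). Over all regions this was 87 (14.8%), against 18.3% of all control peaks found again. H3K9me3 overlapped 1.98% of regions over starts, 3.23% over whole genes, 3.92% over ends, 5 of 125 inside genes and 8 of the 52 outside genes (15.4%, 8.01 to 27.5).

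Around gene starts the width of the peak plays no part in the window. The long regions were still chosen as found again, and the shorter peaks were not. A Kap1 KD peak held 98.2% of the starts in long regions and 91.4% of those in shorter control peaks. Within 250 bp of a protein-coding start, KAP1 was found at 66.4% (61.2 to 71.2) of the 336 starts in long regions, at 52.5% (50.4 to 54.6) of 2206 starts in shorter control peaks and at 10.8% of 19816 starts in none. H3K27ac was found at 65.5%, 60.4% and 14.7%, H3K4me1 at 21.7%, 21.4% and 10.6%, and H3K9me3 at 0.893%, 0.408% and 5.85%. For KAP1 the intervals of long and shorter peaks did not overlap, and for the other marks they did (H3K27ac 60.2 to 70.4 and 58.3 to 62.4). Starts that share a region are not independent, and the part of the choice by overlap in the KAP1 difference was not tested. Of 346 KAP1 peaks centred in long regions, 50.9% were within 1 kb of the leading gene's start, 24.3% further in the gene, 19.9% past its end and 4.91% before it.

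In the profile around the start, KAP1 was highest at 50 bp upstream (65.7% of 207 genes). H3K27ac was at 66.6% at 550 bp upstream, 21.8% at 50 bp downstream and 64.0% at 950 bp downstream. H3K4me1 was at 55.8% at 950 bp upstream, 2.61% at 50 bp downstream and 67.8% at 3850 bp downstream. KAP1 was thus highest in the gap between the flanking marks, and H3K4me1 lay on both sides of it.

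Regions with a KAP1 peak had a median Kap1 KD to control ratio of 1.10 (1.07 to 1.13, 289 regions) and those without one 1.21 (1.16 to 1.27, 297 regions). At least 1.5 times longer were 16.6% and 33.0%. The groups differed in layout too, since a protein-coding start lay in 68.2% of the first and 19.9% of the second, and H3K27ac in 95.5% and 44.1%. Within a layout the ratios with and without KAP1 were 1.07 and 1.10 for whole genes, 1.18 and 1.13 for starts, 1.14 and 1.24 for ends and 1.16 and 1.22 inside genes, each pair with overlapping intervals, which does not show that they are equal. The control length also differed, with a median of 5550 bp with KAP1 and 4426 bp without. The parts of layout and length in the difference over all regions were not tested.

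The region with most bases under KAP1 was Neat1, with 12995 bp in 3 peaks (44.9% of the region). Tnrc18 had 7644 of 10719 bp (71.3%, 11145 bp under Kap1 KD), an intergenic region on chromosome 2 had 7245 of 7480 bp (96.9%, 7275 bp), and Gm17627 had 5577 of 7915 bp (70.5%, 7281 bp). These 4 were each within 1.5-fold of their control length.

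H3K9me3 covered at least 50% of the bases of 4 of the 26 regions it overlapped, among them those led by Kcnq1 and H13. The longest of the 26 was inside Kcnq1, a potassium channel gene of 319797 bp in an imprinted domain, where a region of 17424 bp (20629 bp under Kap1 KD) held 14209 bp of H3K9me3, 2973 bp of KAP1, 173 bp of H3K4me1 and no H3K27ac. The next longest of the 26, chosen for length and not for the mark, were Igfbp4, an IGF-binding protein gene (15716 to 16922 bp, 530 bp of H3K9me3), 1700024J04Rik (14872 to 14918 bp, 166 bp), Taf1d, a snoRNA host (12580 to 12880 bp, 360 bp), and an intergenic region on chromosome 5 (9139 to 9122 bp, 83 bp). H13, which hosts the imprinted gene Mcts2, was singled out after its values were seen: its region of 5835 bp (5211 bp) held 4023 bp of H3K9me3 and 2712 bp of KAP1.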

How the data were processed

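Lists of 8 of the 13 samples were analysed, and the remaining 5 are inputs. The authors aligned reads to mm9 with Bowtie (Bowtie1 for the peak lists per the study's methods), used MACS with total input as background for KAP1 and PolII, and ChIP-Part for histone mark regions. The caller of the PolIII lists is not given in the sources used here. Each deposited list gives start, end and a score per peak, and no counts, so the sequencing depth is unknown. The score was used only for ranks and medians. Peak numbers in the lists skip in places, so calls may have been removed before deposit, which was not tested. The labels name the control as a control shRNA, whereas the methods of the study name an empty vector.

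Positions were read from 0-based files and printed 1-based. Overlap meant 1 bp or more. Genes came from GENCODE M1 (mm9). Analyses used Python 3.11.15, pandas 2.3.3, NumPy 2.4.6, SciPy 1.17.1 and matplotlib 3.10.9. The overlap, coverage, joining and interval code was tested on simulated data, and the layout code was not. The members and the gene lists were chosen with earlier results of these data known. Genes were named by rule: the 10 longest regions, the 5 highest and 5 lowest ratios, up to 5 with H3K9me3, the 5 with most KAP1 bases, the 3 nearest each side of the length minimum, the 5 longest without a Kap1 KD peak, and of each list the genes in the longest regions, with fewer than the 4 allowed where the text shortens them. Jag1, Ipo7, Myo10, Dcn and H13 were added after their values were seen. A few items that these rules name are not reported here. No test was run, since each condition has 1 library. Alternatives covered the length minimum, the overlap, the list size, joining of nearby peaks, chromosome 15, the KAP1 score and the gene biotypes.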

Additional observations from a re-analysis of the deposited data

Results flagged for a closer look

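PolIII, which transcribes tRNAs and other small RNAs and was mapped in the same 2 conditions, was not used above. A control PolIII peak, from a list of 2772, overlapped 13 of the 586 regions (2.22%), a signal outside the main measurement. Over all 5015 control PolII peaks the share was 1.64% (82 peaks), so the long regions were close to that background. At Dedd a PolIII peak covered all 9776 bp of the region, at Hspd1 1 covered 2012 bp and at Ncl 1 covered 1013 bp. Others were led by a, Eif5b, Cspp1, 8430427H17Rik, 1500012F01Rik, Gm11335, B930036N10Rik, Rab3gap1 and Rps29. In the Kap1 KD PolIII list of 431 peaks, 3 regions were overlapped (0.512%, against 0.678% of all control PolII peaks), those of Lasp1, Gm11335 and Rps29.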

How the results depend on the processing

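No paired analysis was possible because no result comes from a test and each condition has 1 library. Of 55 alternative values, 39 stayed within their error or, for the number of regions, within 1.5 times the main count, and 16 moved. A reversal was defined only for the median ratio, as a switch to the other side of equal length, and 0 were found. The shares and the number of regions could not be called reversed. With a minimum of 2000 bp there were 951 regions, the median ratio was 1.18, H3K4me1 overlapped 72.5% and a whole protein-coding gene lay in 17.6%. With 5000 bp there were 277 regions, KAP1 overlapped 58.5%, H3K27ac 74.0% and H3K4me1 87.7%, a start lay in 53.1% and a whole gene in 39.7%. When 500 bp had to be shared, H3K27ac overlapped 59.7%, H3K4me1 66.6% and H3K9me3 1.88%, against 25.2%, 18.4% and 2.05% of all control peaks, and KAP1 48.1% against 31.7%. With only KAP1 peaks at or above the median KAP1 score, KAP1 overlapped 33.8% against 21.7% of all control peaks. With genes of every biotype, 55.5% of regions held a start and 38.6% a whole gene. The number of regions was 583 with the Kap1 KD list reduced to the size of the control list, 532 without chromosome 15 and 560 when Kap1 KD peaks had to cover at least 50% of the region. The median ratio was 1.16 by outer extent and 1.12 with 1 value per group sharing Kap1 KD peaks, the latter chosen after the data had been seen. The cause of these moves was not tested. The lists carry no depth, so a span that misses a peak may be one that was not detectable.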
